A study of Mus musculus with 6 samples.

Results

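The DNA replication and nucleotide synthesis genes described here are 43 mouse genes that were chosen by name. They encode the proteins that license and unwind replication origins, copy DNA, join its fragments, supply its nucleotides and package it behind the fork. The probe set of each was taken from those whose platform annotation names exactly 1 gene. Where a gene had several, the probe set with the highest mean over the 6 arrays stood for it. All 43 were measured, out of 19937 genes in all, and none was removed for low signal.

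Replication begins when the origin recognition complex, with Cdc6 and Cdt1, loads the ring of MCM proteins onto DNA in G1 phase. In S phase Cdc45 and the GINS complex join the ring to form the active helicase, and polymerase alpha, with its primase, lays down primers that polymerases delta and epsilon extend. Most of these genes are transcribed at the G1 to S transition under E2F transcription factors, so their mRNA is widely used as a measure of proliferation.

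Tumours of 2 groups, 3 with placebo and 3 with E2 (17β-estradiol), were profiled on 1 whole-transcript array each. All were grown from MASE2 cells, mouse ascites cells taken from the tgCAG-LS-TAg ovarian cancer model under treatment with E2. In that model, AdCre injected under the ovarian bursa switches on SV40 large and small T antigens in ovarian surface epithelium (OSE), and the large T antigen is known to bind the retinoblastoma family that restrains E2F. Both groups therefore carried the T antigens and came from an E2-exposed source. The hosts were SCID mice, which lack mature T and B lymphocytes but keep macrophages and stroma, and pellets were placed when the cells were injected. Tumours were taken at loss of wellness, so collection days may differ, and no age of the mice was given. The comparison asked how E2 changed the expression of genes in these tumours.

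Values are log2 intensities summarised by RMA, and all differences are E2 minus placebo on that scale. Greb1, an early oestrogen target that checks the labels, was at 4.87 to 5.39 in the placebo tumours and 8.42 to 8.53 in the E2 tumours. Placebo replicate 3 stood apart. Its Pearson r with the other arrays over all genes was 0.857 to 0.865, against 0.96 to 0.994 among the other 5. All 16 intestinal epithelium markers were highest there, with a list mean of 10.19 against 4.50 to 4.70 elsewhere, and 7 of 8 smooth muscle markers were highest there too. Of 12 OSE markers, 8, among them Krt19, Krt8 and Wt1, lay above the median gene on every array. Krt19 and Krt8 were among 5 of the 12 that were highest in placebo replicate 3. Krt7, Cdh1 and Pax8 lay above the median gene on some arrays only, while Muc16 lay between 3.50 and 4.55. The lower quartile of genes was 4.22 to 4.39. Macrophage markers averaged 7.87 and 7.85 in placebo replicates 1 and 2, 6.72 in placebo replicate 3 and 6.35 to 6.80 with E2. T and B lymphocyte markers averaged 4.03 to 4.43 on all 6 arrays. The number of arrays limits the precision. Counts of genes called higher or lower are therefore given on all 6 arrays and on the 5 without placebo replicate 3.

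All 43 replication genes had their lowest value in placebo replicate 3. Across all genes, 33% had their lowest value on that array. The shortfall against the mean of placebo replicates 1 and 2 had a median of -1.14 log2 and ran from -1.75 for Pola1 to -0.27 for Pold2, while the median over all genes was -0.02. Intestinal and smooth muscle markers were high on the same array, and their part in the shortfall was not tested. In whole tumour RNA, fewer replicating cells and less replication mRNA per cell cannot be told apart. Among the other 5 arrays the genes varied little. The SD over the 3 E2 tumours had a median of 0.08 log2 and was at most 0.22, and the median absolute gap between placebo replicates 1 and 2 was 0.16.

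**Figure D1:**
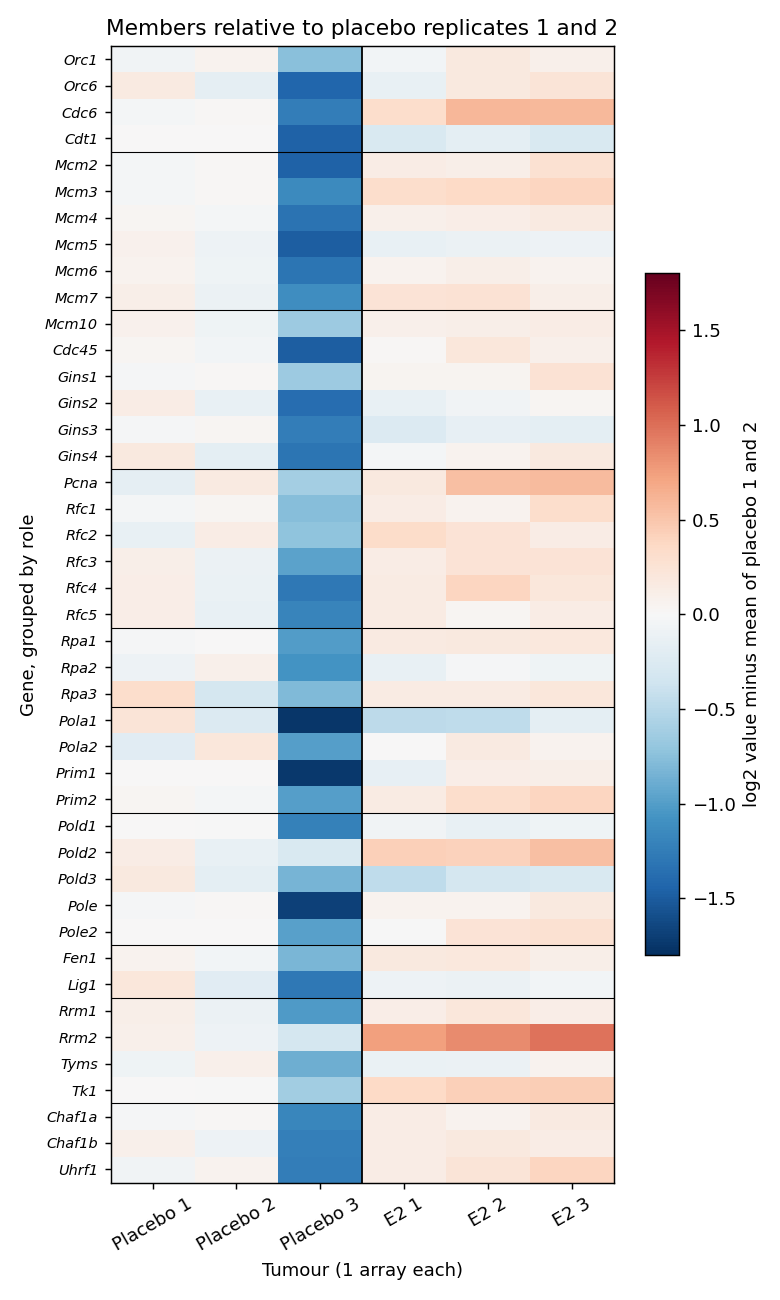
Heat map of the 43 genes (rows, grouped by role) on the 6 arrays (columns), coloured by log2 value minus the mean of placebo replicates 1 and 2. Placebo replicate 3 is below 0 in every row, and Rrm2 shows the strongest rise across the 3 E2 columns.

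On all 6 arrays, 1 of the 43 genes, Rrm2, rose at a limma adjusted p under 0.05, and 0 fell. That is 2.33% of them higher, against 1.06% of all genes higher, 0.326% lower and 1.38% in either direction. At an unadjusted p under 0.05, 5 were higher, and 0 lower, against 10.4% of all genes higher. With an unadjusted p under 0.05 and at least a 1.5-fold change, 4 were called (Rrm2, Cdc6, Pcna and Tk1), against 6.14% of all genes. Of the 43, 42 had a higher mean with E2, against 48.3% of all genes, and the median difference was 0.51 log2 against -0.01 for all genes. Without placebo replicate 3, 5 rose (Rrm2, Tk1, Cdc6, Pold2 and Mcm3) and 0 fell, or 11.6% higher against 6.4% of all genes higher, 5.21% lower and 11.6% in either direction. At an unadjusted p under 0.05, 7 were higher and 2 lower, against 13.5% and 11.5% of all genes, and with a 1.5-fold change 1 was called, against 7.46%. The median difference was then 0.12 log2, with 33 means higher and 10 lower, against 47.5% of all genes higher. With quantile normalization repeated on those 5 arrays, 2 rose (Rrm2 and Cdc6), Cdt1 fell, and the median was 0.01 log2 with 24 means higher, while 6.21% of all genes rose, 5.71% fell, 52.7% had a higher mean and their median was 0.01. With each array centred on its median, the members' median was 0.21 log2, 36 means were higher and the same 5 rose. Under that scaling 9.31% of all genes rose, 4.12% fell, 66% had a higher mean and their median was 0.07.

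In 21 of the 43 genes every E2 tumour lay above every placebo tumour, against 14.9% of all genes. Since placebo replicate 3 was the lowest array for all of them, the same 21 separated without it, where 21.2% of all genes did. In 5 genes (Cdt1, Mcm5, Gins3, Pold1 and Pold3) every E2 tumour lay below placebo replicates 1 and 2, against 20.4% of all genes.

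The nucleotide synthesis genes held the clearest difference. Rrm2 encodes the small subunit of ribonucleotide reductase, the enzyme that turns ribonucleotides into deoxyribonucleotides, and its level is known to follow S phase. It measured 8.01, 7.83 and 7.61 in placebo replicates 1, 2 and 3, and 8.66, 8.77 and 8.90 in E2 replicates 1, 2 and 3. The groups did not overlap, and the lowest E2 tumour stood above the highest placebo tumour by more than either group's SD (0.20 for placebo and 0.12 for E2, n = 3). Rrm2 rose 1.94-fold, by 0.96 log2 (SE 0.13, 95% confidence interval 0.64 to 1.28, adjusted p = 0.0335). An exact two-sided permutation test gave p = 0.10, the smallest that 3 against 3 allows. The call on 6 arrays was lost when any array other than placebo replicate 3 was left out. The adjusted p was 0.0711 and 0.084 without placebo replicates 1 and 2, and 0.137, 0.189 and 0.177 without E2 replicates 1, 2 and 3. Without placebo replicate 3 the difference was 0.86 log2 (SE 0.11, adjusted p = 0.00275). On those 5 arrays it stayed past the threshold in every alternative that kept both placebo replicates 1 and 2. Over all 14 alternatives run the difference was 0.70 to 0.94 log2, and the 0.94 came from the fit with placebo replicate 2 as the lone placebo tumour.

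Tk1, the thymidine kinase that salvages thymidine, measured 7.26, 7.24 and 6.63 with placebo and 7.61, 7.68 and 7.69 with E2. Every E2 tumour lay above every placebo tumour. Its difference of 0.62 log2 did not pass on 6 arrays (adjusted p = 0.182), and it rose by 0.41 log2 (SE 0.09, adjusted p = 0.0227) without placebo replicate 3. Another probe set annotated to Tk1 gave 0.61 and 0.39 log2. The one used here is the brighter, and it may read a near-identical copy of the gene, such as a processed pseudogene, so the Tk1 values are uncertain. With every probe set tested singly, neither passed on 5 arrays (adjusted p = 0.0582 and 0.0739). Rrm1, the large subunit of ribonucleotide reductase, was 0.49 log2 higher on 6 arrays and 0.15 higher without placebo replicate 3 (95% confidence interval -0.08 to 0.38, adjusted p = 0.412). Rrm1 thus had an interval below that of its partner Rrm2 (0.60 to 1.11) on the same 5 arrays, though the difference between the subunits was not tested. Tyms, the thymidylate synthase that makes the thymine nucleotide, differed by 0.24 log2 on 6 arrays and by -0.06 without placebo replicate 3 (interval -0.30 to 0.19).

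**Figure D2:**
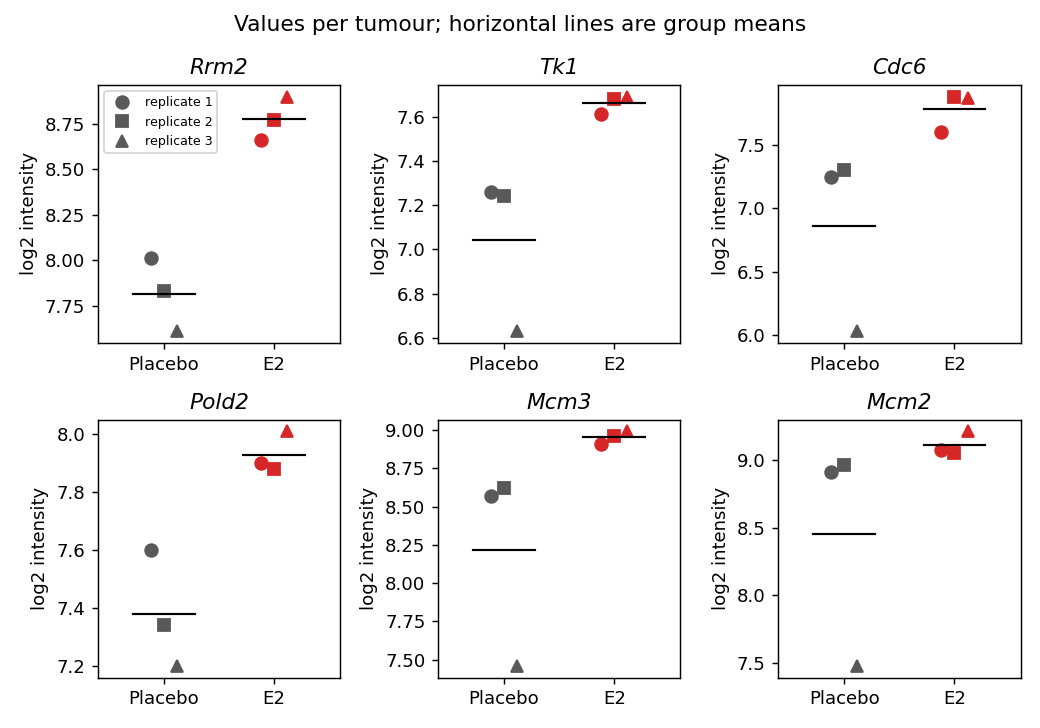
Log2 intensity of Rrm2, Tk1, Cdc6, Pold2, Mcm3 and Mcm2 in each tumour, with the group means as horizontal lines and the replicate number by symbol. Each axis has its own range and does not start at 0. In each panel the 3 E2 tumours lie above all placebo tumours, and placebo replicate 3 is the lowest point.

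The promoters of the 5 genes that rose without placebo replicate 3 are shown because these are the sequences at which their transcription starts. Each is the 250 bases before the start site given by RefSeq (GRCm38.p6), read 5′ to 3′ on the gene's strand, with capitals marking matches to the E2F words TTTCCCGC, TTTGGCGC and TTTCGCGC or to CCAAT, on either strand. Pold2 has more than 1 start in the table, and the one that lies farthest upstream is shown.
Rrm2 (chr12:24708004-24708253, plus strand): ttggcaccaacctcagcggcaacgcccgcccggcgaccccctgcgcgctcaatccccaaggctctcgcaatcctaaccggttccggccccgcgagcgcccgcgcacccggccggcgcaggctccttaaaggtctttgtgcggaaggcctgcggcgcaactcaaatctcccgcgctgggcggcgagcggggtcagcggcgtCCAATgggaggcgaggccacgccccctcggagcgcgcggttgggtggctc
Tk1 (chr11:117826015-117826264, minus strand): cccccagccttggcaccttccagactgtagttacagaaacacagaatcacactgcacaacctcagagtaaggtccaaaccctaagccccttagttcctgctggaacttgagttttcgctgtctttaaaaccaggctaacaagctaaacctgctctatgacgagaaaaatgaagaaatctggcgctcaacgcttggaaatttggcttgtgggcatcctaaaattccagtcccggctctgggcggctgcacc
Cdc6 (chr11:98907901-98908150, plus strand): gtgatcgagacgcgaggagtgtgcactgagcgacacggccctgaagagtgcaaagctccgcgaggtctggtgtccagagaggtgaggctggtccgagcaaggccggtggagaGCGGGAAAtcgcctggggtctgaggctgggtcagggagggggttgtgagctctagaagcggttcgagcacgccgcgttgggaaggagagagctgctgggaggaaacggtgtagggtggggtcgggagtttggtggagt
Mcm3 (chr1:20820313-20820562, minus strand): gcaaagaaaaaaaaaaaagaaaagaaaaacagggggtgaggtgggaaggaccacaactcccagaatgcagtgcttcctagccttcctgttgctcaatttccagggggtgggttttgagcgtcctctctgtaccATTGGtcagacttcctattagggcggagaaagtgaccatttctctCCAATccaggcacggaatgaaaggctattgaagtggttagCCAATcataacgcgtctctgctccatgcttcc
Pold2 (chr11:5878257-5878506, minus strand): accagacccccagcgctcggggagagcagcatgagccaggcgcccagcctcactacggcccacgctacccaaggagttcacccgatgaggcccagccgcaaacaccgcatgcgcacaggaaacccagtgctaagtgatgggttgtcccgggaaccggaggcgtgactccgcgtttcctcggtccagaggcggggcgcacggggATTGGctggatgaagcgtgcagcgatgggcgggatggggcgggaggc
The Rrm2 stretch holds a CCAAT word 50 to 46 bases before the start and no E2F word. Cdc6 holds an E2F word 138 to 131 bases before its start, on the opposite strand. Mcm3 holds CCAAT words at 117 to 113, 72 to 68 and 32 to 28 bases before its start, and its E2F words lie after the start, at bases 20 to 27 and 39 to 46. Pold2 holds a CCAAT word 47 to 43 bases before its start, and no searched word was found for Tk1. As the Tk1 probe set used may read a near-identical copy, the Tk1 promoter shown may not be that of the transcript measured.

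Of the 43 genes, 36 were in the promoter table. In the window from 250 bases before to 50 bases after the start, 15 of the 36 held at least 1 of the 3 E2F words (41.7%), against 2.12% of the 27025 genes in the table. The CCAAT word was found in 23 (63.9%), against 41.1% of genes. The oestrogen response element, GGTCA and TGACC with any 3 bases between them, was found in 0 of the 36, against 0.074% of genes. The element is so rare in the windows that this count cannot set the 36 apart from other genes. A match is a description of letters, not of binding. Without placebo replicate 3 the 15 genes with an E2F word had a median difference of 0.07 log2, from -0.36 (Pola1) to 0.51 (Cdc6). The other 21 had a median of 0.15. On 6 arrays these medians were 0.39 and 0.51.

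Among the origin licensing genes, Cdc6, the ATPase that helps load the MCM ring, rose without placebo replicate 3, and the other 3 did not pass. Cdc6 measured 7.25, 7.30 and 6.03 with placebo and 7.60, 7.88 and 7.87 with E2, so the groups did not overlap. On 6 arrays its difference of 0.92 log2 missed the threshold (SE 0.35, adjusted p = 0.276), and without placebo replicate 3 it rose by 0.51 log2, or 1.42-fold (SE 0.11, adjusted p = 0.026). Orc1, the largest subunit of the origin recognition complex, measured 5.67, 5.79 and 4.98 with placebo and 5.68, 5.90 and 5.82 with E2. Outside placebo replicate 3 the groups overlapped, and the difference was 0.07 log2 (interval -0.17 to 0.31). Orc6, its smallest subunit, differed by 0.57 log2 on 6 arrays and 0.09 on 5. Cdt1, which loads MCM together with Cdc6, differed by 0.24 on 6 arrays and by -0.24 on 5 (interval -0.45 to -0.03, unadjusted p = 0.0296, adjusted p = 0.144). Cdc6 and Cdt1, which act at the same step, thus had differences of opposite sign outside placebo replicate 3.

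The 6 MCM genes encode the subunits of the hexameric ring that becomes the replicative helicase. All 6 had higher means with E2 on 6 arrays (0.39 to 0.74 log2), 0 passed limma and 0 had an unadjusted p under 0.05. Without placebo replicate 3 they ran from -0.11 for Mcm5 to 0.36 for Mcm3, and Mcm3 rose. Mcm3 measured 8.57, 8.62 and 7.46 with placebo and 8.91, 8.96 and 8.99 with E2, a rise of 0.36 log2 (SE 0.09, adjusted p = 0.0385) on 5 arrays. It did not pass with quantile normalization repeated (0.20 log2, adjusted p = 0.174) or with trended and robust variance (0.36 log2, adjusted p = 0.0613). The E2 tumours agreed within an SD of 0.04 and lay above placebo replicates 1 and 2. Mcm2 measured 8.91, 8.96 and 7.48 with placebo and 9.07, 9.05 and 9.21 with E2. Those groups did not overlap either, but the difference of 0.66 log2 on 6 arrays (adjusted p = 0.474) and 0.17 on 5 (interval -0.05 to 0.39, adjusted p = 0.321) did not pass. The exact permutation p of Mcm2 on 6 arrays was 0.10, the smallest possible, which any gene whose groups do not overlap must give. It therefore adds nothing to the lack of overlap. Mcm7 measured 9.04, 8.82 and 7.81 with placebo and 9.17, 9.19 and 9.04 with E2, so that E2 replicate 3 met placebo replicate 1. Its difference was 0.20 log2 without placebo replicate 3 (interval -0.05 to 0.44). Mcm4 and Mcm6 differed by 0.12 and 0.08 log2 on those arrays, and their intervals, like that of Mcm5 (-0.33 to 0.11), included 0.

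The genes of helicase activation did not pass in either comparison. They are Cdc45, the 4 GINS subunits and Mcm10, a scaffold that joins the helicase to the polymerases. On 6 arrays their differences were 0.23 to 0.60 log2, and on 5 they were -0.19 for Gins3 to 0.12 for Gins1, with 0 of 6 at an unadjusted p under 0.05 in either. Mcm10 measured 6.96, 6.80 and 6.23 with placebo and 6.97, 6.99 and 7.01 with E2. Gins1 measured 5.87, 5.91 and 5.24 with placebo and 5.94, 5.94 and 6.15 with E2. In both, the E2 tumours lay just above placebo replicates 1 and 2, by margins within the placebo gap or the E2 spread. Cdc45 differed by 0.60 on 6 arrays and 0.10 on 5, Gins2 by 0.40 and -0.06, and Gins4 by 0.50 and 0.06.

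None of the 6 genes of the sliding clamp and its loader passed in either comparison. All 6 had higher means with E2 in both, as did 42 and 33 of the 43 genes, at a median of 0.52 log2 on 6 arrays and 0.22 on 5. Pcna, the clamp that holds polymerases on DNA, measured 10.01, 10.33 and 9.56 with placebo and 10.35, 10.71 and 10.74 with E2. Those values barely separated, as E2 replicate 1 lay just above placebo replicate 2, and the difference was 0.63 log2 on 6 arrays and 0.43 on 5 (adjusted p = 0.236 and 0.118). Another probe set annotated to Pcna gave smaller differences, 0.42 and 0.17. As for Tk1, the brighter probe set used may read a near-identical copy, so the Pcna values are uncertain. Rfc2, a subunit of the loader that opens the clamp, measured 7.09, 7.37 and 6.51 with placebo and 7.56, 7.48 and 7.36 with E2, and overlapped placebo replicate 2. The loader genes Rfc1, Rfc2, Rfc3, Rfc4 and Rfc5 differed by 0.18, 0.23, 0.20, 0.24 and 0.11 log2 on 5 arrays.

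Replication protein A coats single-stranded DNA at the fork. Rpa1, its large subunit, measured 7.60, 7.63 and 6.62 with placebo and 7.78, 7.80 and 7.81 with E2, so the groups did not overlap. Its difference was 0.51 log2 on 6 arrays and 0.18 on 5 (interval -0.02 to 0.38, adjusted p = 0.247). Rpa3, the smallest subunit, measured 6.40, 5.76 and 5.29 with placebo against 6.23, 6.23 and 6.29 with E2, inside the placebo range, and another probe set annotated to it gave 0.04 log2 on 6 arrays against 0.44. The same uncertainty about near-identical copies holds for Rpa3. Rpa2 differed by 0.28 on 6 arrays and by -0.08 on 5.

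Polymerase alpha and primase genes did not pass. Prim2, the large primase subunit, measured 6.77, 6.70 and 5.75 with placebo and 6.89, 7.06 and 7.12 with E2. Its groups did not overlap, and the difference was 0.62 log2 on 6 arrays and 0.29 on 5 (unadjusted p = 0.0232, adjusted p = 0.123). Pola2, the accessory subunit of polymerase alpha, measured 7.18, 7.60 and 6.40 with placebo and 7.39, 7.55 and 7.45 with E2, within the placebo range. Prim1, the catalytic primase subunit, differed by 0.61 on 6 arrays and 0.03 on 5. Pola1, the catalytic subunit of polymerase alpha, was the farthest below placebo replicates 1 and 2, at -0.36 log2 on 5 arrays (adjusted p = 0.205), although placebo replicates 1 and 2 were themselves at 8.12 and 7.65.

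The subunits of polymerase delta differed in sign. Pold2, a non-catalytic subunit, measured 7.60, 7.34 and 7.20 with placebo and 7.90, 7.88 and 8.01 with E2, with no overlap. It rose by 0.46 log2 without placebo replicate 3 (SE 0.11, adjusted p = 0.0322), and its 0.55 on 6 arrays missed the threshold (adjusted p = 0.105). Pold3, an accessory subunit, was the 1 gene with a lower mean on 6 arrays, at -0.07 log2, and was at -0.35 on 5 (unadjusted p = 0.0253, adjusted p = 0.131). Pold1, the catalytic subunit, differed by 0.31 on 6 arrays and -0.09 on 5. Pole2, a non-catalytic subunit of polymerase epsilon, measured 6.31, 6.32 and 5.33 with placebo and 6.30, 6.55 and 6.58 with E2, and the groups overlapped at E2 replicate 1. Pole, its catalytic subunit, differed by 0.66 on 6 arrays and 0.10 on 5.

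Fen1, the flap nuclease that trims Okazaki fragments, measured 7.36, 7.25 and 6.48 with placebo and 7.48, 7.49 and 7.40 with E2. Its difference of 0.15 log2 on 5 arrays did not pass (adjusted p = 0.372). Lig1, the ligase that joins the fragments, measured 8.80, 8.39 and 7.31 with placebo and 8.50, 8.48 and 8.54 with E2. Here the E2 values fell between placebo replicates 1 and 2, and the difference turned from 0.34 log2 on 6 arrays to -0.09 on 5. Chaf1b, a subunit of the chromatin assembly factor that deposits histones on new DNA, measured 8.09, 7.91 and 6.77 with placebo and 8.14, 8.17 and 8.13 with E2. Uhrf1, which recruits the maintenance DNA methyltransferase to the fork, measured 8.03, 8.17 and 6.86 with placebo and 8.23, 8.33 and 8.48 with E2. Both sets of E2 values lay above all placebo values, and the differences on 5 arrays, 0.15 and 0.25 log2, did not pass (adjusted p = 0.402 and 0.205). Chaf1a, the large subunit of the same factor, differed by 0.51 on 6 arrays and 0.13 on 5.

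**Figure D3:**
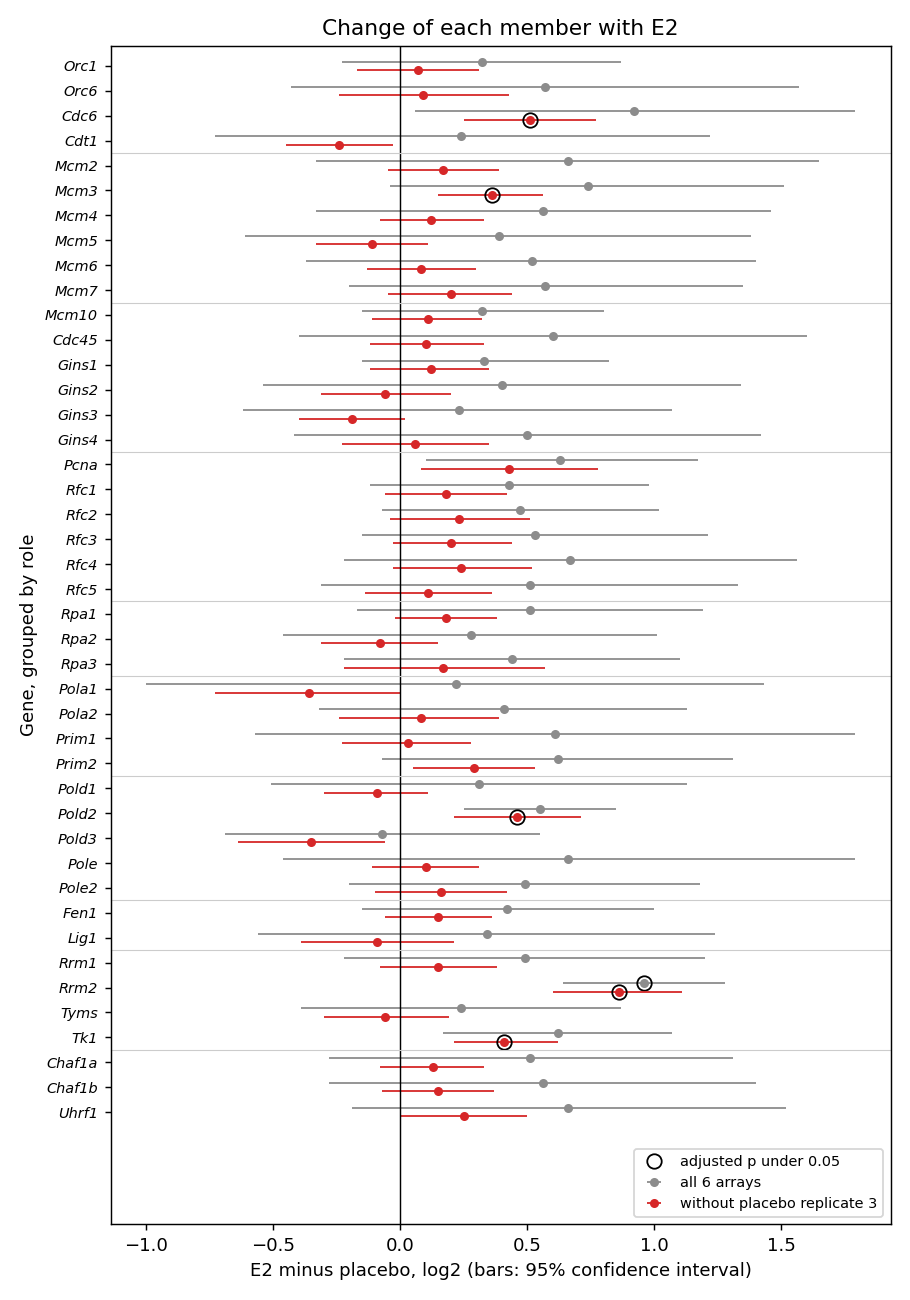
E2 minus placebo (log2, horizontal axis) for each of the 43 genes, with 95% confidence intervals from limma, on all 6 arrays (grey) and without placebo replicate 3 (red). Black rings mark an adjusted p under 0.05, which Rrm2 has in both and Tk1, Cdc6, Pold2 and Mcm3 in red only. Every red point lies to the left of its grey partner.

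The calls of the 4 genes that passed on 5 arrays beside Rrm2 depended on single arrays. Their differences, with 1 further array left out, ran from 0.40 to 0.44 log2 for Tk1, 0.33 to 0.38 for Mcm3, 0.46 to 0.60 for Cdc6 and 0.33 to 0.59 for Pold2. Leaving out a further E2 array kept Rrm2 in every case, and left 2, 1 and 1 calls without E2 replicates 1, 2 and 3. Without E2 replicate 1 these were Rrm2 and Cdc6. Without placebo replicate 1 or 2, the lone remaining placebo tumour had to be assumed to vary like the E2 tumours. Only differences are therefore given for those fits, and Rrm2 differed by 0.94 log2 without replicate 1 and 0.77 without replicate 2.

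The rest of the pathway was read from lists of other genes in the same fits. Of 33 measured genes that act at origins and forks, 0 passed on 6 arrays, and 6 were higher at an unadjusted p under 0.05, against 10.4% of all genes. On 5 arrays 3 rose (9.09%, against 6.4% of all genes) and 0 fell, with a median of 0.10 log2 against -0.01 for all genes. Top1, the topoisomerase that relaxes DNA ahead of forks, rose by 0.76 log2 (adjusted p = 0.00885), and Pold4, the smallest polymerase delta subunit, by 0.85 (adjusted p = 0.0147). Wdhd1, which ties polymerase alpha to the helicase, rose by 0.48 (adjusted p = 0.023). Top1 and Pold4 were not low in placebo replicate 3, where they measured 7.61 and 6.42 against 6.98 or less and 5.92 or less in the other placebo tumours, and on 6 arrays their groups overlapped.

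Of 23 measured genes of nucleotide synthesis outside the 43, 0 passed on 6 arrays, and 11 were higher at an unadjusted p under 0.05, against 10.4% of all genes. On 5 arrays 4 rose (17.4%, against 6.4% of all genes) and 0 fell, with a median of 0.29 log2. Umps, which completes uridine monophosphate synthesis, measured 7.82, 7.81 and 6.84 with placebo and 8.27, 8.42 and 8.59 with E2, a rise of 0.62 log2 (adjusted p = 0.0122). The purine synthesis genes Paics, Pfas and Ppat, the last of which encodes the enzyme of the committed step, rose by 0.51, 0.53 and 0.46 log2 (adjusted p = 0.0243, 0.0258 and 0.0366). For all 4, every E2 tumour lay above every placebo tumour, as held for 12 of the 23, against 14.9% of all genes.

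Of 19 measured mitosis genes, 0 passed on 6 arrays, and 1 was higher at an unadjusted p under 0.05, against 10.4% of all genes. On 5 arrays 0 rose, against 6.4% of all genes, and 1, Mki67, fell (5.26%, against 5.21%), with a median of 0.08 log2. Mki67, the proliferation antigen, measured 9.28, 8.77 and 7.58 with placebo and 8.20, 7.97 and 8.43 with E2. It fell by 0.82 log2 on 5 arrays (adjusted p = 0.0253), and its -0.34 on 6 arrays did not pass (adjusted p = 0.713). All 19 were lowest in placebo replicate 3, as the 43 replication genes were, with a median shortfall of -1.0 log2. The other nucleotide synthesis list had 18 of 23 genes lowest there and a median shortfall of -0.49. The differences between these lists were not tested.

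**Figure D4:**
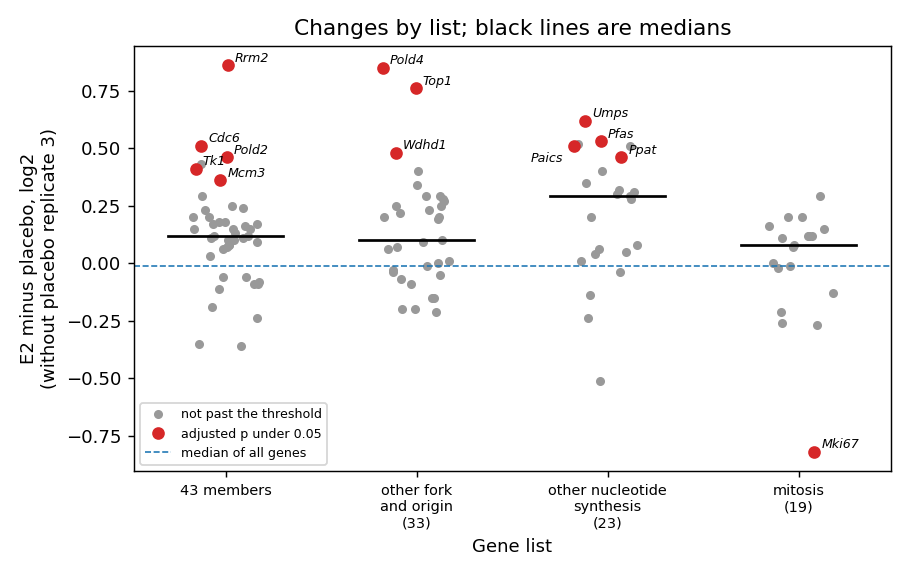
E2 minus placebo (log2) without placebo replicate 3 for each gene of 4 lists, with list medians as black lines, the median of all genes as a dashed line, and genes with an adjusted p under 0.05 in red. The red points are above 0 except Mki67 in the mitosis list.

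**Figure D5:**
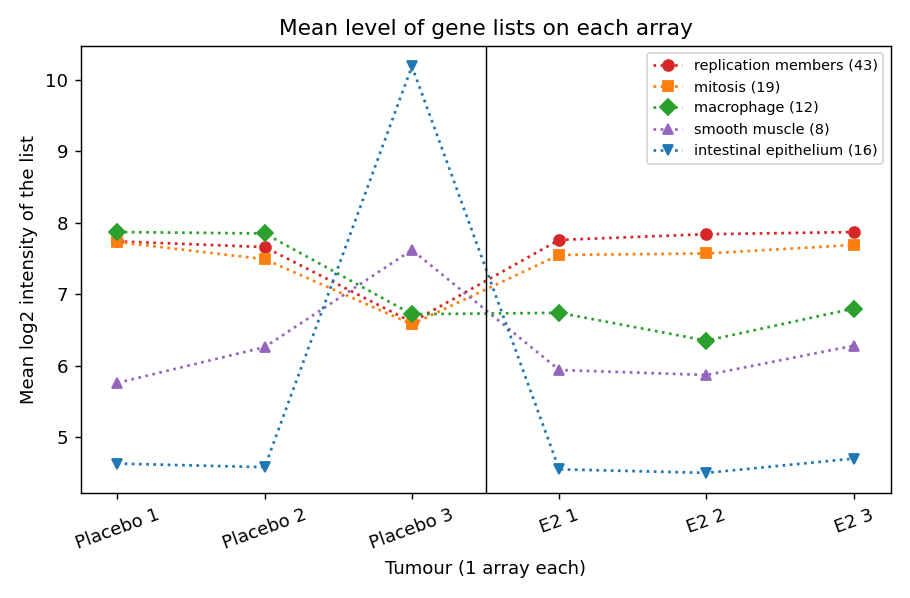
Mean log2 intensity of 5 gene lists on each array, joined by dotted lines only to guide the eye. The replication list goes from 7.74 and 7.66 in placebo replicates 1 and 2 to 6.61 in placebo replicate 3 and 7.76 to 7.87 with E2, while the intestinal list reaches 10.19 in placebo replicate 3. Lists differ in their probes, so heights are compared along a line, not between lines.

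The list means show the same pattern on single arrays. The 43 genes averaged 7.74, 7.66 and 6.61 in placebo replicates 1, 2 and 3 and 7.76, 7.84 and 7.87 in E2 replicates 1, 2 and 3. The lowest E2 mean, in replicate 1, was just above that of placebo replicate 1, by less than the gap between placebo replicates 1 and 2. Of 12 macrophage markers, 10 fell on 5 arrays and 0 rose, against 5.21% of all genes lower and 6.4% higher. Of 8 fibroblast markers, 5 fell (Col1a1, Col1a2, Col3a1, Lum and Thy1) and Pdgfra rose by 1.08 log2 (adjusted p = 0.0127), with list means of 7.61 to 8.02 with E2 against 8.04 and 8.43 in placebo replicates 1 and 2. Of the 12 OSE markers, 6 fell (Krt7, Msln, Muc16, Upk1b, Upk3b and Wt1) and Cdh2 rose by 2.10 log2 (adjusted p = 0.000112), with list means of 6.19 to 6.42 against 7.45 and 7.24. On 6 arrays, 1 macrophage marker fell (Ptprc), 0 fibroblast markers passed, and 1 OSE marker fell (Krt7) while Cdh2 rose. Of all genes, 0.326% fell and 1.06% rose on 6 arrays. The part of these cell markers in the small rises of replication genes was not tested.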

How the data were processed

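Each array has a log2 intensity for every probe set in the deposited table, which the authors obtained with RMA according to the submitters' processing notes. RMA corrects background, equalises array distributions and summarises probes, so it compresses changes near background. Its version and the genome build were not stated in the labels. Of 34760 probe sets, 21640 named 1 gene, 1321 several and 11799 none, and 0 columns were left unmapped. Groups came from the sample titles.

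The groups were compared over 19937 genes by limma 3.58.1 (lmFit, eBayes; R 4.3.3), without covariates, two-sided, with Benjamini-Hochberg adjustment over all genes and a threshold of 0.05. Each array is a separate tumour, and the p-values reflect variation among tumours. The members and lists were chosen with earlier results of these data known. Values on every array are given for Mcm2, Rrm2, each gene called on 6 or 5 arrays and the 2 of smallest p in each role, and for genes of other lists that passed or that a result turns on. The alternatives were leaving out each array, a replicate block, filters on dim genes, the mean of probe sets, all probe sets singly, quantile normalization, median centring, trended robust variance, array weights and other thresholds. Promoters are from RefSeq (GRCm38.p6).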

Additional observations from a re-analysis of the deposited data

How the results depend on the processing

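With 3 arrays a group and 2 placebo arrays without replicate 3, small differences could not be detected. On 6 arrays, leaving out single arrays gave 0 to 5 called members. It was 3 with array weights (Pold2, Rrm2 and Tk1), 4 at an unadjusted p under 0.05 with a 1.5-fold change, and 1 in the other 8 alternatives except the block. Lig1 lay between -0.09 (without placebo replicate 3) and 0.66 when single arrays were left out, and at -0.03 with array weights. The member median stayed above 0 in all 15 alternatives (0.12 to 0.70 log2). It was 0.12 without placebo replicate 3, the lowest array for all 43 genes, and 0.19 with array weights. The other alternatives kept that array, so their medians include its shortfall and are no separate support for a rise with E2.

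On 5 arrays, the count of 5 went to between 1 and 2 without each further E2 array. It was 1 with all probe sets tested singly, 3 with quantile normalization repeated, 4 with trended and robust variance (without Mcm3) and 1 at an unadjusted p under 0.05 with a 1.5-fold change. The median of 0.12 log2 went to 0.01 with quantile normalization and 0.21 with median centring. These alternatives for the median and for single genes on 5 arrays were added after the data were seen. The cause of these shifts was not tested.

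With the replicate number as a block, 0 members were called on 6 arrays and 1, Rrm2, on 5. Whether the replicate numbers pair the tumours could not be told from these arrays. Same-numbered deviations from the group means correlated at -0.03, -0.18 and -0.13, and 0 of 6 samples correlated best with their own number. The placebo mean includes placebo replicate 3, which shifts every placebo deviation, so these values cannot decide it.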
